A study of Mus musculus with 8 samples.

Results

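The guanylate-binding proteins (GBPs) and the immunity-related GTPases (IRGs) are interferon-inducible GTPases. Here 10 of their genes were followed in granulocyte-macrophage progenitors (GMP), from which marrow makes its neutrophils and monocytes. They were chosen by name, as 6 GBP genes (Gbp2, Gbp3, Gbp4, Gbp5, Gbp7 and Gbp9) and 4 IRG genes (Irgm1, Irgm2, Igtp and Iigp1). Earlier results of these data were known when that choice was made. All 10 were among the 23123 genes analysed.

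GMP were sorted by flow cytometry from lineage-negative bone marrow cells of C57BL/6 mice, 30000 to 100000 cells a sample, and their polyadenylated RNA was sequenced. The 4 control libraries (RH2hWT, replicates 1 to 4) came from Rnaseh2bfl/fl VavCre- littermates and the 4 knockout libraries (RH2hKO, replicates 5 to 8) from Rnaseh2bfl/fl VavCre+ mice. Both groups thus carry the floxed Rnaseh2b alleles, and only the knockouts carry VavCre, a recombinase driven by a promoter active in blood-forming cells, so that deletion is expected in blood cells other than GMP too. Rnaseh2b encodes a subunit of RNase H2, which removes ribonucleotides from DNA and degrades RNA held in RNA-DNA hybrids. The mice received no agent that the labels name, and their age was not given.

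GBP and IRG genes are among the genes most strongly induced by interferon gamma, and many respond to type I interferons as well. Interferon gamma signals through the kinases Jak1 and Jak2 to a short palindromic promoter element called GAS. Type I interferons act on the interferon-stimulated response element (ISRE), which is bound with the help of Irf9 and which interferon regulatory factors such as Irf1 also bind. The proteins gather on the membranes of vacuoles that hold bacteria or parasites, where GBPs help to break the vacuole and expose its content to inflammasomes. Among the IRGs, Irgm1, Irgm2 and Igtp are regulators that sit on the cell's own membranes and hold effector IRGs such as Iigp1 inactive there.

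The libraries held 28352720 to 45655518 reads assigned to genes. Values are the authors' normalised counts, that is, reads divided by 1 factor per library. Rnaseh2b was at 1207 to 2470.0 normalised counts in controls and at 75.9 to 128 in knockouts (log2 fold change -4.05, limma adjusted p = 3.78e-07). All 12 listed GMP markers were tested and 0 passed the test (limma, 4 at an unadjusted p below 0.05), or 1 rose without knockout 8. Their summed level was 1285142 to 1398290 normalised counts in controls and 1164769 to 1223809 in knockouts. Knockout 8 stood apart for the GTPase genes, so their values are given with and without it.

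None of the 9 tested genes was called changed by limma with all 8 libraries, and all 10 genes had their highest value in knockout 8. Expression was compared with limma on log2(normalised count + 1) for the 16683 genes whose mean reached 10 normalised counts, and p-values were adjusted over all of them by the Benjamini-Hochberg method with a threshold of 0.05. Of the 9 members tested, 0 passed, where 1.40% of all tested genes did. At an unadjusted p below 0.05 there were 5 of 9, where the share of all genes was 13.2% and, counting higher genes alone, 6.74%. On reads recovered from the normalised counts, edgeR called 0 of 9. DESeq2, which gave no adjusted p for Iigp1, called 1 of the other 8, Irgm1 (adjusted p = 0.0401), where edgeR called 1.44% and DESeq2 3.35% of all genes. The log2 fold change, knockout over control, was above 0 for 9 of 9, where it was above 0 for 47.2% of all genes, and its median was 0.44 against -0.01 over all genes. Without knockout 8 it was above 0 for 8 of 9 (48.7% of all genes) with a median of 0.19 and 0 members passed, where 3.41% of all genes did. In sorted bulk samples, more cells of a kind that makes a transcript and more of that transcript per cell cannot be told apart.

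Knockouts 5 to 7 mostly lay at or just above the controls. Of their 27 values for the 9 tested members, 14 fell within the range of the 4 controls, 13 lay above it and 0 below it. These values are the same mice read over 9 genes and not separate observations, and no such share was counted over all tested genes. The ratio of the mean of knockouts 5 to 7 to the control mean ran from 0.906 for Gbp9 to 1.38 for Iigp1. Knockout 8 was the highest of the 8 libraries for 9 of 9 tested members, where it was the highest for 15.0% of all tested genes. A measure chosen after the values were seen counted genes at which 1 library reached at least 1.5 times the highest of the other 7, after adding 1 to each normalised count. Knockout 8 met it for 7 of 9 members and for 1.43% of all tested genes, while controls 1 to 4 met it for 0.324%, 0.396%, 0.480% and 0.396% and knockouts 5 to 7 for 0.456%, 0.515% and 0.234%. This was 1 mouse and 1 library, so the difference between it and the other knockouts has no replicate and no test. Knockout 8 was sample number 13, after the controls at 9 to 12 and knockouts 5 to 7 at 6 to 8. The labels do not say what that order stands for, and its part in the values was not tested.

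Gbp2, Gbp3, Gbp5 and Gbp7 lie together on mouse chromosome 3, and all 4 were expressed in GMP, from 300.2 normalised counts upwards in every library. Their upstream sequences are shown because interferon-response elements would be sought there. Each is the 170 bases before the RefSeq start site (build GRCm38.p6), written 5′ to 3′ on the gene's strand, with matches to an ISRE-like motif and to a GAS-like motif in capitals. The ISRE-like motif is TTTC, any 2 bases and TTTC again, which reads GAAA, any 2 bases and GAAA on the other strand, and the GAS-like motif is TTC, any 3 bases and GAA. Other annotated transcripts of Gbp2, Gbp3 and Gbp5 begin further upstream, and a further RefSeq promoter of Gbp3 is not printed.
Gbp2, chr3:142620493-142620662, plus strand: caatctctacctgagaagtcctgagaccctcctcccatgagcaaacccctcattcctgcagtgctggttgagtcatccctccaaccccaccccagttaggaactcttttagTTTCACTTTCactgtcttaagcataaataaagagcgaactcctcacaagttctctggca
Gbp3, chr3:142559874-142560043, plus strand: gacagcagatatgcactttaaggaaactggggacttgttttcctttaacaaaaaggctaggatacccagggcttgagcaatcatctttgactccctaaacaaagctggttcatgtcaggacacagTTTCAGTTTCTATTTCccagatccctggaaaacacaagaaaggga
Gbp5, chr3:142496764-142496933, plus strand: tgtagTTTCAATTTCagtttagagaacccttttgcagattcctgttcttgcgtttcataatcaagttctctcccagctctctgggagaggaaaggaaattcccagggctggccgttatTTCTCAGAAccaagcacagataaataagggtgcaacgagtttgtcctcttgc
Gbp7, chr3:142530166-142530335, plus strand: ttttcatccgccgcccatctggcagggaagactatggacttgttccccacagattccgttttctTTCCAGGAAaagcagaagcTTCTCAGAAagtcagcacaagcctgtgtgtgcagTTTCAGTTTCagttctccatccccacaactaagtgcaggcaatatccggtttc

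Gbp2 (ENSMUSG00000028270, chr3:142620602-142638008, plus strand, mm10) encodes a GBP that coats vacuoles of intracellular parasites. It was at 390.3, 464, 355 and 300.2 normalised counts in controls 1 to 4 and at 384, 446, 506 and 1679 in knockouts 5 to 8. Knockout 8 was 3.32 times the next highest library, while knockouts 5 and 6 lay inside the control range and the groups overlapped. The control mean was 377 ± 68.6 and the knockout mean 754 ± 619 (SD, n = 4 each), a log2 fold change of 0.73 with a standard error of 0.35 (limma adjusted p = 0.387). Without knockout 8 it was 0.25 (limma adjusted p = 0.421).

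Gbp5 (ENSMUSG00000105504, chr3:142493978-142522344, plus strand), a GBP known to promote assembly of the Nlrp3 inflammasome, was at 894, 822, 821 and 787 in controls 1 to 4. In knockouts 5 to 8 it was at 911, 896, 1021 and 1997 normalised counts. All 4 knockouts lay above all 4 controls, knockouts 5 and 6 by a small margin, and knockout 8 was 1.96 times the next highest library. The means were 831 ± 45.0 and 1206 ± 530.0 (SD, n = 4 each), a log2 fold change of 0.45 with a standard error of 0.20 (limma adjusted p = 0.346). Without knockout 8 it was 0.18 (limma adjusted p = 0.323).

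Gbp7 (ENSMUSG00000040253, chr3:142530342-142550149, plus strand), linked to the delivery of NADPH oxidase subunits to bacterial vacuoles, was at 1869, 1966, 1715 and 1812 in controls. It was at 1856, 2086, 2103 and 3229 normalised counts in knockouts 5 to 8. Knockout 5 lay inside the control range and knockout 8 was 1.54 times the next highest library. The means were 1840.4 ± 105 and 2318 ± 617 (SD, n = 4 each), and the log2 fold change was 0.30 with a standard error of 0.14 (limma adjusted p = 0.362), or 0.13 without knockout 8 (limma adjusted p = 0.416). A processed pseudogene, Gm43802, overlaps 637 of its exon bases on the same strand (11.3%), so part of its reads is uncertain.

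Gbp3 (ENSMUSG00000028268, chr3:142560026-142573209, plus strand), the most abundant of the 10, was at 3566, 3143, 3021 and 2939 in controls and at 3667, 3471, 3956 and 5598 normalised counts in knockouts 5 to 8. Knockout 8 was 1.41 times the next highest library, below the ratio of 1.5 used above. Only knockout 6 fell inside the control range. The means were 3167 ± 279 and 4173 ± 971 (SD, n = 4 each), a log2 fold change of 0.38 with a standard error of 0.13 (limma adjusted p = 0.202), or 0.23 without knockout 8 (limma adjusted p = 0.154). With control 1 and knockout 8 both left out it passed the test at 0.28 (limma adjusted p = 0.0303), a setting in which 8.62% of all genes passed.

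Of the 10 genes, the 2 on chromosome 5 that encode GBPs were barely expressed. Gbp4 (ENSMUSG00000079363, chr5:105115767-105139586, minus strand) was at 0, 2.8, 1.2 and 2.8 normalised counts in controls 1 to 4 and at 1.8, 4.9, 2.0 and 5.8 in knockouts 5 to 8. It fell below the minimum mean and was not tested, and its counts rest on 7 reads over the controls, 9 over knockouts 5 to 7 and 6 in knockout 8. Gbp9 (ENSMUSG00000029298, chr5:105077630-105139539, minus strand) was at 3.9, 25.5, 18.7 and 13 in controls and at 7.2, 9.7, 24.6 and 52.9 in knockouts 5 to 8. Knockouts 5 to 7 lay within the control range and knockout 8 was 2.07 times the next highest library. Its log2 fold change was 0.44 with a standard error of 0.67 (limma adjusted p = 0.841) and turned to -0.07 without knockout 8 (limma adjusted p = 0.969). It also turned to -0.06 without control 1, its lowest library. Gbp4 and Gbp9 overlap on the same strand at 60 exon bases.

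The regulators of the IRG family lie on chromosome 11. The upstream sequence of Irgm1, in which another annotated transcript also begins, is shown in the same form, followed by 41-base windows of the promoters of Irgm2, Igtp and 3 other IRG genes that share a GAS-like match 11 bases before an ISRE-like match. The RefSeq start sites used for Irgm2, Tgtp1 and Gm12185 lie inside gene models that begin further upstream, for Irgm2 at 58199618 against a start site at 58214977.
Irgm1, chr11:48871421-48871590, minus strand: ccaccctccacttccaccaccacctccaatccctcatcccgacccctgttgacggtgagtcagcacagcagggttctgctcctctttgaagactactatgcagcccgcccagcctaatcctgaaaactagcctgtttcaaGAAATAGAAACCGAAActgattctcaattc
Irgm2, chr11:58214892-58214932, plus strand: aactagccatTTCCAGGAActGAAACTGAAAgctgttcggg
Igtp, chr11:58199501-58199541, plus strand: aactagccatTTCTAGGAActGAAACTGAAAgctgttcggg
Tgtp1, chr11:48992304-48992344, minus strand: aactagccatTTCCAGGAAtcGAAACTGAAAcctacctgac
Tgtp2, chr11:49064263-49064303, minus strand: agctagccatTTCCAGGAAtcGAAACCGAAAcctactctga
Gm12185, chr11:48927238-48927278, minus strand: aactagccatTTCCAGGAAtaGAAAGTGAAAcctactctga

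Irgm1 (ENSMUSG00000046879, chr11:48861968-48871683, minus strand), a regulatory IRG known for roles in mitochondrial quality and in keeping blood stem cells quiescent, was at 1373, 1142, 1369 and 1287 normalised counts in controls. It was at 1615, 1611, 1427 and 2142 in knockouts 5 to 8. All 4 knockouts lay above all 4 controls, and knockout 8 was 1.33 times the next highest library, the smallest such ratio of the 9 tested members. The means were 1293 ± 108 and 1699 ± 309 (SD, n = 4 each), a log2 fold change of 0.38 with a standard error of 0.12 (limma adjusted p = 0.154), or 0.26 without knockout 8 (limma adjusted p = 0.137). DESeq2 on the recovered reads gave 0.40 and, as stated above, called it.

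Groups that did not overlap were thus seen for 2 of the 9 tested members, Gbp5 and Irgm1, where all 4 knockouts lay above all 4 controls for 3.99% of all tested genes. With knockouts 5 to 7 alone there were also 2, the same genes, where the share of all tested genes was 7.58%.

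Irgm2 (ENSMUSG00000069874, chr11:58199618-58222782, plus strand), also a regulator, was at 426, 351, 368 and 400.3 normalised counts in controls and at 433, 411, 386 and 812 in knockouts 5 to 8. Knockouts 6 and 7 lay inside the control range, knockout 5 just above it, and knockout 8 was 1.88 times the next highest library. The means were 386 ± 33.0 and 511 ± 202 (SD, n = 4 each), and the log2 fold change was 0.33 with a standard error of 0.20 (limma adjusted p = 0.50), or 0.09 without knockout 8 (limma adjusted p = 0.755).

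Igtp (ENSMUSG00000078853, chr11:58199556-58207591, plus strand), the regulator also called Irgm3, was at 546, 511, 587 and 429 in controls and at 683, 537, 554 and 1519.6 normalised counts in knockouts 5 to 8. Knockouts 6 and 7 lay inside the control range, and knockout 8 was 2.22 times the next highest library. The means were 518 ± 67.1 and 824 ± 469 (SD, n = 4 each), and the log2 fold change was 0.53 with a standard error of 0.26 (limma adjusted p = 0.391), or 0.19 without knockout 8 (limma adjusted p = 0.468). Igtp and Irgm2 overlap on the same strand and share 162 exon bases in GENCODE M21, 8.01% of Igtp and 4.39% of Irgm2, so reads from there may be split between them or left out by the counting.

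Iigp1 (ENSMUSG00000054072, chr18:60376027-60392634, plus strand), an effector IRG that coats the vacuole of Toxoplasma and is also called Irga6, showed the widest spread. It was at 43.9, 1.9, 11.2 and 6.5 normalised counts in controls and at 18, 29.2, 18.7 and 666 in knockouts 5 to 8. Knockouts 5 to 7 lay inside the control range, and knockout 8 was 15.2 times the next highest library, control 1. These values rest on 74 reads over the 4 controls, 69 over knockouts 5 to 7 and 692 in knockout 8. The means were 15.9 ± 19.1 and 183 ± 322 (SD, n = 4 each), and the log2 fold change was 2.33 with a standard error of 1.03 (limma adjusted p = 0.351), or 1.10 without knockout 8 (limma adjusted p = 0.461).

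**Figure D1:**
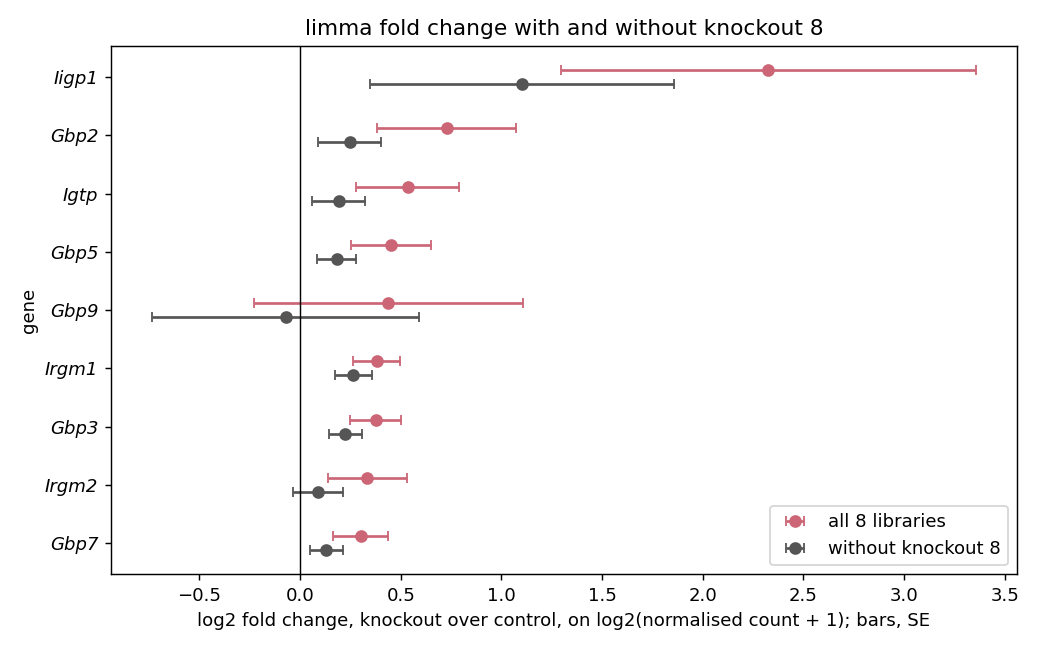
limma log2 fold changes, knockout over control, on log2(normalised count + 1), for the 9 tested genes, with all 8 libraries and without knockout 8. Points are estimates and bars are standard errors, and leaving out knockout 8 moved the median of the 9 from 0.44 to 0.19.

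The medians of both families lay close together, and the ratios ranged more widely among the IRG genes. The median log2 fold change was 0.44 over the 5 tested GBP genes and 0.46 over the 4 IRG genes, and without knockout 8 it was 0.18 and 0.23. Knockout 8 relative to the mean of knockouts 5 to 7 ran from 1.51 to 3.82 times over the 5 GBP genes and from 1.38 to 30.3 times over the 4 IRG genes, with a median of 2.12 over all 9. Among the 16683 tested genes ranked by that difference on the log2 scale, Iigp1 was at rank 6, Gbp9 at 83, Gbp2 at 103, Igtp at 265 and Gbp5 at 443. Irgm2 was at rank 560, Gbp7 at 1072, Gbp3 at 1302 and Irgm1 at 1852. The most abundant genes, Gbp3, Gbp7 and Irgm1, were the 3 lowest in this order.

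**Figure D2:**
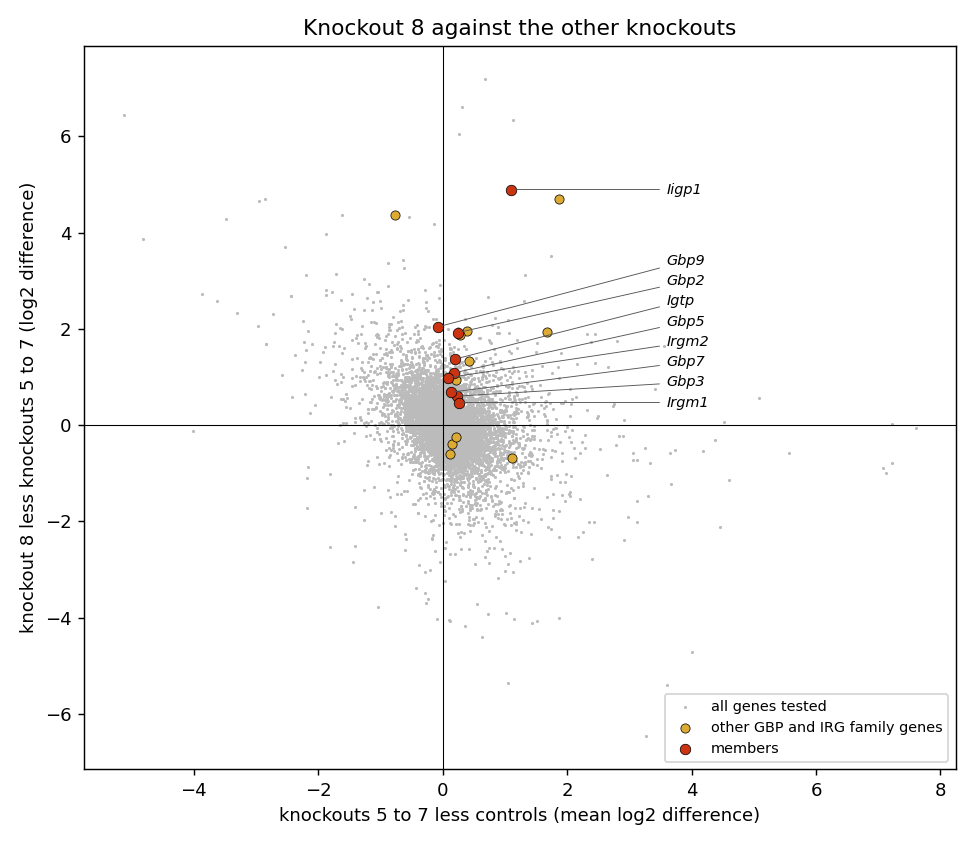
Mean log2 difference of knockouts 5 to 7 from the controls (horizontal) against the log2 difference of knockout 8 from knockouts 5 to 7 (vertical) for the 16683 tested genes in grey, other GBP and IRG family genes in yellow and members in red. All 9 tested members lie above 0 on the vertical axis, from 0.47 for Irgm1 to 4.89 for Iigp1.

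The order of the levels among genes was read per kilobase of gene model. In controls, Gbp3 was the highest at 970.0 ± 85.3 normalised counts per kb (SD, n = 4), followed by Gbp7 at 328 ± 18.7 and Igtp at 256 ± 33.2. Irgm1 was at 223 ± 18.6, Gbp2 at 150.0 ± 27.3, Gbp5 at 125 ± 6.78 and Irgm2 at 105 ± 8.95 normalised counts per kb. Gbp9, Iigp1 and Gbp4 closed the order at 2.95 ± 1.77, 2.73 ± 3.27 and 0.227 ± 0.18. Among neighbours in this order, the control ranges of Igtp and Irgm1, of Gbp2 and Gbp5, of Gbp9 and Iigp1, and of Iigp1 and Gbp4 overlapped, and the others did not. In knockout 8 the order per kb was another one, with Gbp3 at 1715, Igtp at 752, Gbp2 at 667, Gbp7 at 575 and Irgm1 at 369. Gbp5 was at 301, Irgm2 at 220.1, Iigp1 at 114, Gbp9 at 10.2 and Gbp4 at 0.774 normalised counts per kb in that library. Igtp and Gbp2 were thus above Gbp7 in knockout 8, which they were not in the control means.

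Promoter windows of 300 bases, 250 before and 50 after the start site, were read from RefSeq (GRCm38.p6) for 7 of the 10 members, with 8 windows in all since Gbp3 has 2. Gbp4, Gbp9 and Iigp1 were not analysed here. Windows on chromosome 18, which holds Iigp1, were left out for members and other family genes but kept among all windows. Both motifs were sought on both strands, and in members no GAS-like match overlapped an ISRE-like one. An ISRE-like match was found in 7 of the 8 windows, against 1131 of all 32851 windows (3.44%). A GAS-like match was found in 4 of 8, those of Gbp5, Gbp7, Irgm2 and Igtp, against 8.30% of all windows, and the same 4 held both motifs against 0.454% of all. Of the windows of other family genes, 6 of 10 held an ISRE-like match and 4 of 10 a GAS-like match, and that of Ifi47 held neither. In Gbp3 and in Irgm1 there were 2 ISRE-like matches that overlap each other. These are matches of letters and not measured binding. ISRE-like matches were found in members whose knockout 8 values stood apart and in Gbp3 and Irgm1, whose values did not. The 4 members with a GAS-like match all stood apart. Gbp2 stood apart without a GAS-like match, and Gbp3 and Irgm1 had none either.

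**Figure D3:**
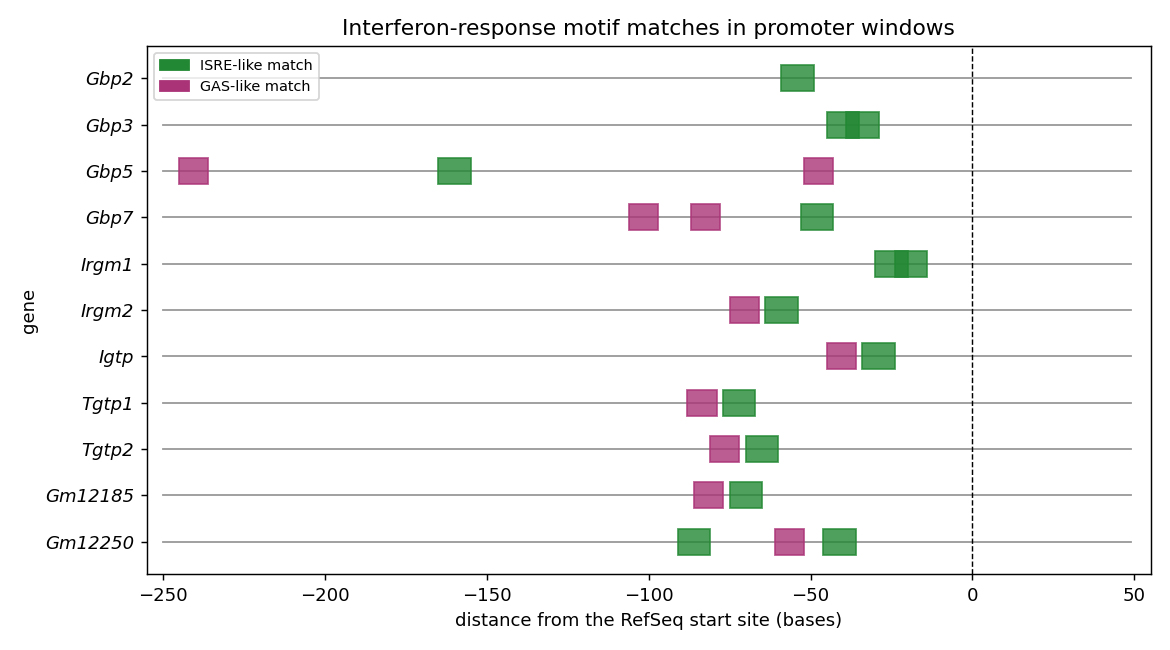
Positions of ISRE-like and GAS-like matches relative to the RefSeq start site in bases, 1 line per window. Drawn are 1 window for each of 7 members and the 4 of 10 windows of other family genes that held both motifs. A further window of Gbp3 held no match and is not drawn. Over all 8 member windows, ISRE-like matches lie in 7 and GAS-like matches in 4.

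The pair of motifs in the 41-base windows printed above was rare. Counted between first letters, a GAS-like match lay within 20 bases before an ISRE-like match in 30 of 32851 windows. It lay exactly 11 bases before in 5 of 32851 (0.0152%). All 5 were IRG genes of chromosome 11, namely Irgm2, Igtp, Tgtp1, Tgtp2 and Gm12185. The spacing of 11 is the one that these windows themselves show, so the count describes them and is no test. The Irgm2 and Igtp windows were identical at 40 of 41 bases, and those of Irgm2 and Tgtp1 at 32 of 41. These genes are close relatives, so their shared letters are not independent of one another.

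Other genes of both families were read from a list of 18, of which 17 were in the table and 11 were tested. None passed the test (0 of 11 with limma, 6 at an unadjusted p below 0.05, 0 of 11 with edgeR and 0 of the 10 to which DESeq2 gave an adjusted p). Gbp6 and Gm4951 reached the minimum mean only through knockout 8, so the pattern was counted over the other 9. Among these the log2 fold change was above 0 for 8 of 9, with a median of 0.75, or 0.29 without knockout 8. Knockout 8 was the highest library for 5 of 9, and reached at least 1.5 times the next highest for the same number, namely Ifi47, Tgtp1, Tgtp2, Gm12185 and Gm12250. Over all genes that reached the minimum mean with and without knockout 8, it was the highest for 14.8% and stood apart in this way for 1.22%. All 9 tested members are among these genes.

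Tgtp1, an effector IRG of the Irgb6 group, was at 255, 177, 187 and 201 normalised counts in controls and at 302, 247, 251 and 1035 in knockouts 5 to 8 (log2 fold change 0.88, limma adjusted p = 0.295). Its near copy Tgtp2 was at 181, 187, 164 and 135 in controls and at 230.5, 259, 138 and 744 in knockouts. In both, knockout 8 was far above the other 7 libraries. Reads of such near copies may be split between them by the counting. Ifi47, an IRG also called Irgd, was at 2275, 2447, 2661 and 2299.7 in controls and at 2717, 3054, 2701 and 5421 in knockouts, with all 4 knockouts above all 4 controls. Irgq, a distant member not known to be induced by interferon, was at 734 to 1029 in controls and at 946, 849, 1050.0 and 719.9 in knockouts 5 to 8, with knockout 8 the lowest library.

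**Figure D4:**
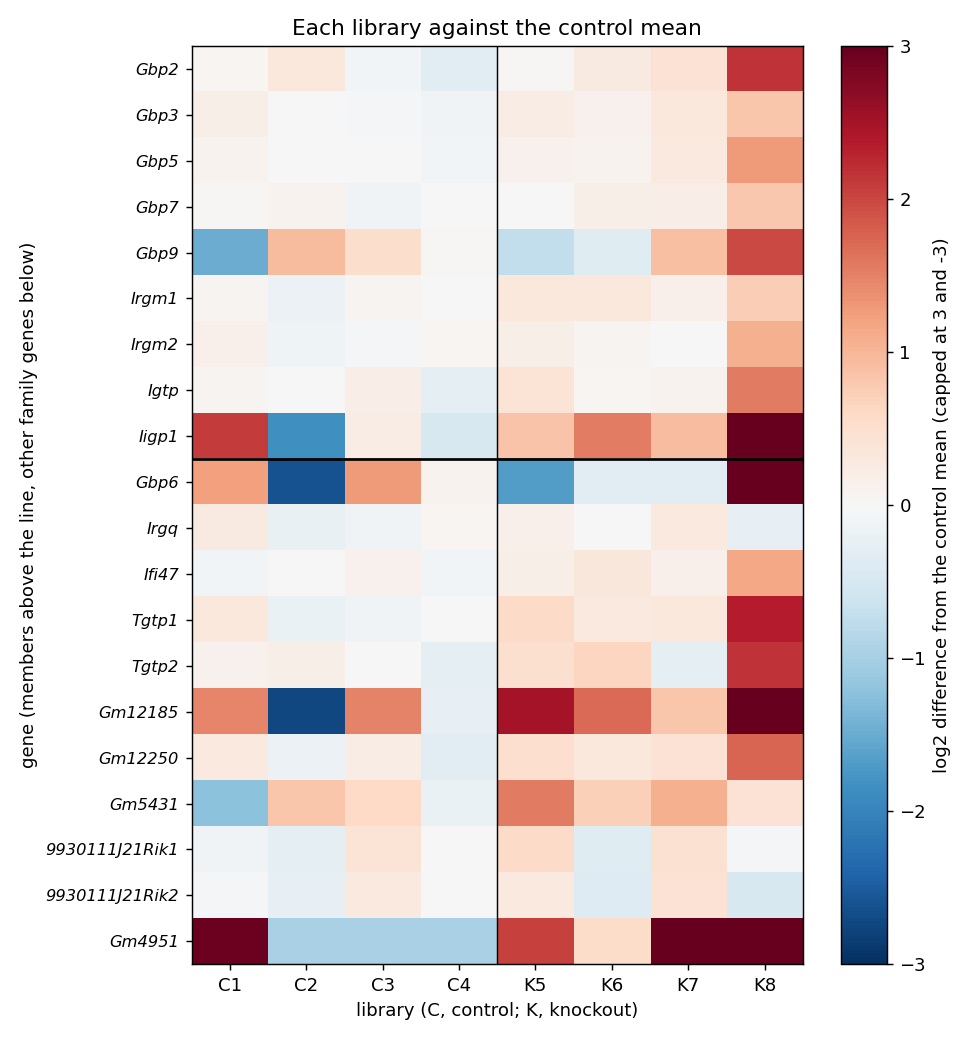
Log2 difference of each library from the control mean on log2(normalised count + 1), for members above the line and other GBP and IRG family genes below it, with colours capped at 3 and -3. Averaged over the 9 tested members, the difference was -0.13 to 0.14 in controls, 0.16 to 0.37 in knockouts 5 to 7 and 1.82 in knockout 8.

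Of 9 listed dynamin-like GTPases that interferon induces, 8 were tested, 1 rose and 0 fell, the log2 fold change was above 0 for 8 of 8 and the median was 0.46, or 0.20 without knockout 8. Knockout 8 was the highest library for 6 of 8 and stood apart for 1 of 8. DESeq2 called 3 of 8 as higher, Mx1, Mx2 and Gm4070. The gene that rose in limma was Mx1, an antiviral GTPase, at 98.0, 49.1, 124 and 52.8 normalised counts in controls and at 494, 194, 229 and 218 in knockouts 5 to 8. Its highest library was knockout 5, and all 4 knockouts lay above all 4 controls (log2 fold change 1.80, limma adjusted p = 0.0124). The value was 1.89 without knockout 8 (limma adjusted p = 0.00939), and the call was lost without control 4 (1.63, limma adjusted p = 0.051). For Mx2, its close relative, all 4 knockouts likewise lay above all 4 controls (log2 fold change 1.68, limma adjusted p = 0.118).

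Of 12 listed ligands, receptors and kinases of the interferon pathways, 7 were tested. None passed (0 of 7 with limma, 0 at an unadjusted p below 0.05), the median log2 fold change was 0.00, and knockout 8 stood apart for 0. Ifngr1, a chain of the interferon gamma receptor, had a control mean of 15480.3 ± 1582 normalised counts and a knockout mean of 13643 ± 2017 (SD, n = 4 each). It passed as lower with control 1 and knockout 8 both left out (log2 fold change -0.35, limma adjusted p = 0.0141). Jak1, a kinase bound to that receptor, was at 5714 ± 167 and 5733 ± 209. Ifng, Ifnb1 and 3 other ligand genes were not analysed here.

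Of 17 listed transcription factors and feedback regulators of these genes, 16 were tested, 3 rose and 0 fell, where 1.19% of all tested genes rose. The median log2 fold change was 0.28, or 0.25 without knockout 8, and the same 3 rose without it. Nlrc5, an activator of MHC class I genes, rose from 1014 ± 246 to 1864 ± 359 normalised counts (SD, n = 4 each; log2 fold change 0.89, limma adjusted p = 0.0115). Batf2, an interferon-induced AP-1 family factor, rose from 22.8 ± 12 to 80.5 ± 27.2 (1.85, limma adjusted p = 0.0334). Irf9, the DNA-binding subunit of the type I interferon complex, rose from 1299.6 ± 163 to 1787 ± 155 (0.46, limma adjusted p = 0.0357), and knockout 8 was its lowest knockout at 1650.5. The calls of Batf2 and Irf9 were each lost when control 2 was left out (limma adjusted p = 0.105 and 0.137), and also without control 4, knockout 5 or knockout 7. That of Irf9 was further lost without control 3 or knockout 6. Knockout 8 stood apart for 2 of the 16. An example, named after its values were seen, is Irf7, at 68.6 to 135 normalised counts in controls and at 231, 149.9, 143 and 373 in knockouts 5 to 8. For Irf7, too, all 4 knockouts lay above all 4 controls. DESeq2 called 4 of the 16 as higher, Nlrc5, Batf2, Irf9 and Irf7, where it called 3.35% of all genes. It gave Irf7 a log2 fold change of 0.96 (DESeq2 adjusted p = 0.0389).

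Of 16 other genes that interferon gamma strongly induces, 14 were tested, 1 rose and 0 fell. H2-Eb1 reached the minimum mean only through knockout 8. Over the other 13 the median log2 fold change was 0.30, or 0.12 without knockout 8, which was the highest library for 12 of 13 and stood apart for 7 of 13. Tap1, a subunit of the peptide transporter for MHC class I, rose from 5182 ± 671 to 7977 ± 942 normalised counts (SD, n = 4 each; log2 fold change 0.62, limma adjusted p = 0.00428). Among those set apart by knockout 8, and named after their values were seen, was Cxcl9, a chemokine known for its dependence on interferon gamma. It was at 29.0, 10.4, 6.2 and 6.5 in controls and at 14.4, 3.9, 5.9 and 161 in knockouts 5 to 8. Serpina3g, a serine protease inhibitor, was at 722 to 972 in controls and at 1332, 1813, 1485 and 7155 in knockouts, and all 4 knockouts lay above all 4 controls. It did not pass with all 8 libraries (log2 fold change 1.40, limma adjusted p = 0.103) and passed without knockout 8 (0.85, limma adjusted p = 0.00104) and with array weights (1.16, limma adjusted p = 0.0175). With control 1 and knockout 8 both left out, 2 of 12 tested genes of this list rose, Tap1 and Serpina3g, and 2 fell. Those were Cd74 (log2 fold change -3.36, limma adjusted p = 0.0229) and H2-Aa (-2.15, limma adjusted p = 0.0313).

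Genes whose products act on GBP and IRG proteins, or downstream of them, gave no call with all 8 libraries weighted equally in limma. With control 1 and knockout 8 both left out, Atg12, Atg5 and Gabarap of the autophagy list (log2 fold change -0.28, -0.31 and -0.26) and Fnta of the lipid list (-0.27) passed as lower, and with array weights Atg5 and Gabarap did (-0.26 each). Of the autophagy conjugation machinery that helps to place them on vacuoles, 0 of 17 tested genes passed (limma, 3 at an unadjusted p below 0.05). Its most abundant gene was Ubb, which encodes ubiquitin, with a control mean of 21248 ± 911 normalised counts and a knockout mean of 19404 ± 708 (SD, n = 4 each). Of the enzymes of lipid modification, 0 of 11 passed (1 at an unadjusted p below 0.05), with Nmt1, a myristoyl transferase, at 5734 ± 452 and 5366 ± 218. Zdhhc3, a palmitoyl transferase, was at 4539 ± 362 and 4822 ± 270.3. Of the inflammasome genes, 0 of 11 tested passed (0 at an unadjusted p below 0.05), with Casp8 at 4503 ± 75.8 and 4333 ± 162, and the adaptor Pycard at 3198 ± 240 and 3286 ± 476. Knockout 8 stood apart for 0 of 17, 0 of 11 and 1 of 11 genes of these lists. The 1 was Casp4, the sensor of cytosolic lipopolysaccharide, at 393 to 507 normalised counts in controls and at 329.5, 394, 359 and 882 in knockouts 5 to 8, named after its values were seen.

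Markers of other cells that a GMP sort could hold were read beside these values. Knockout 8 stood apart for 0 of 5 tested dendritic cell markers, 0 of 9 monocyte and macrophage markers, 0 of 2 T and NK cell markers and 0 of 5 B cell markers. It stood apart for 1 of 9 later neutrophil markers, Lcn2, and 0 of 2 endothelial and stromal markers. Of the 8 T and NK cell markers in the table, 6 were too low to test, with Cd3d at most 3.8 normalised counts in any library and Trac at 0 in knockout 8, while Klrb1c was at 21.2 in knockout 8 and at most 8.9 elsewhere. The list summed to 9637 to 14414 normalised counts in controls and 9017 to 12824 in knockouts, nearly all of it Nkg7, at 12788 in knockout 8. Dendritic cell markers summed to 2597 to 3218 in controls and 4017 to 5193 in knockouts, 4781 of them in knockout 8. Of the 5 tested, 2 rose (Bst2 and Flt3) and 0 fell, with a median log2 fold change of -0.07, while Xcr1 and Cd209a were at 0 in knockout 8. Monocyte and macrophage markers summed to 72058 to 76833 in controls and 66555 to 78959 in knockouts, and 2 of 9 rose (Ccr2 and Cd68), or 3 rose and 1 fell without knockout 8, while C1qa and C1qb were at most 5.8. B cell markers summed to 7553 to 8707 in controls and 4939 to 8633 in knockouts, lowest in knockout 8. Later neutrophil markers summed to 1481 to 7352 in controls and 1230 to 3162 in knockouts, highest of the knockouts in knockout 8, and 0 of 9 passed the test (limma, 7 at an unadjusted p below 0.05). Their median log2 fold change was -2.06, and without knockout 8 it was -1.81 and 3 of 9 fell. Endothelial and stromal markers summed to 3829 to 4761 in controls and 5323 to 6145 in knockouts, and 1 of 2 rose (Pecam1).

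The summed level of mast cell, basophil and eosinophil markers was also higher in knockout 8 than in knockouts 5 to 7. This list of 16 was added after such genes were seen among those highest in knockout 8, so it is described with no test. Their sum was 34797 to 49057 normalised counts in controls, 16685 to 24832 in knockouts 5 to 7 and 47524 in knockout 8. Of the 14 with a mean of at least 10 over the other 7 libraries, knockout 8 was the highest for 9 and stood apart for 4, namely Fcer1a, Ms4a2, Il1rl1 and Gata1. Fcer1a, a chain of the IgE receptor, was at 245 to 463 in controls and at 311, 489.6, 246 and 2524 in knockouts 5 to 8. Ms4a2, another chain of that receptor, was at 857 to 1420.4 in controls and at 475, 814, 591 and 3291 in knockouts. Prg2, an eosinophil granule protein, was at 12803 to 23089 in controls and at 5584, 6454, 3372 and 16428 in knockouts. Knockouts 5 to 7 lay below all controls for Prg2 and Ms4a2 but not for Fcer1a. The part of these cells in the values of the GTPase genes was not tested.

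The genes nearest in pattern to the tested members were found by the root mean square difference between each gene's log2 profile over the 8 libraries, less its control mean, and the mean profile of the 9 members. Over the 12315 genes that are no members and whose mean reached 100, the nearest were Gm12250 at 0.17, Lcn2 at 0.23, Tgtp1 at 0.26, Ifi47 at 0.26 and Parp12 at 0.27, where a flat profile would be at 0.67. Of these 5, 3 belong to the IRG family. Gm12250, annotated as a processed pseudogene of the same chromosome 11 cluster as Igtp, was at 476, 346, 455 and 308 normalised counts in controls and at 556, 482, 526 and 1307 in knockouts 5 to 8. Genes that flank the members and belong to neither family were counted too. Of 30 such genes, the nearest 3 tested on each side of the 5 clusters, 0 passed the test (limma), knockout 8 was the highest for 7 and it stood apart for 0.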

How the data were processed

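GMP were gated as LE-K CD16/32hi CD34+ cells among lineage-negative marrow, and strand-specific poly(A) libraries were made from 37 to 50 ng of RNA with 15 PCR cycles, per the labels' protocols. Per the submitters' processing notes, the build was mm10 and the tools included GSNAP 2020-12-16, R 3.5.1, DESeq2 1.30.1, FastQC and featureCounts 2.0.1. The strand setting and the annotation release were not given in the sources used here.

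In the deposited table each of 23131 genes has 1 signal value in each library, namely reads after division by 1 factor for each library, done by the authors. All 169267 values above 0 (100%) came out as whole reads within 0.051 normalised counts, which gave the depths. Of 8 symbols on 2 identifiers, 1 identifier was kept, leaving 23123 genes. Groups came from the labels, which name separate mice.

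The two-sided test used log2(normalised count + 1) in limma 3.58.1 (R 4.3.3), fitted with an intensity trend to genes whose mean reached 10, with all 8 libraries and no covariate. On this scale the fold changes of low genes are understated. Alternatives were edgeR 4.0.16 and DESeq2 1.42.0 on recovered reads, array weights, no trend, quantile normalisation, equal totals, a minimum mean of 50 or none, pseudocounts of 0.5 and 5, and libraries left out. The code was tested on simulated counts. Read totals speak to counting error alone, because copies made in the PCR cycles are not separate molecules.

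The members and lists were chosen with earlier results of these data known. Named were all 10 members, up to 4 called genes of each list, or the 2 most abundant where none was called, tested genes of the family list, and the 5 genes nearest in pattern. Genes named otherwise are marked as chosen after their values were seen, and some genes that these rules take are not reported here. Overlaps were read from GENCODE M21 and promoters from RefSeq (GRCm38.p6), matched by symbol.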

Additional observations from a re-analysis of the deposited data

Results flagged for a closer look

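In groups of 4, the gap between the most extreme library and its nearest neighbour was divided by the range of the group and compared with the critical value of Dixon's test. The 10 genes and the summed gene and marker lists gave 50 such groups, of which 10 were above it, and the genes alone gave 5 of 20. Chance puts about 1 in 20 separate groups above the value, but these groups share the same libraries, so the counts are no test. Knockout 8 was the extreme library for Iigp1 (0.983), Gbp2 (0.906), Irgm2 (0.891), Gbp5 (0.886) and Igtp (0.851), in each case on the high side. It was also the extreme library for the summed counts of the other GBP and IRG family genes (0.963) and of the other genes that interferon gamma strongly induces (0.906). Knockout 7 was the extreme library for the summed counts of the lipid modification enzymes (0.925), the endothelial and stromal markers (0.906) and the autophagy conjugation machinery (0.849).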

How the results depend on the processing

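Of 169 values of the 9 tested members under 19 alternatives, 164 kept their direction and their side of the threshold. Gbp9 turned from 0.44 to -0.06 without control 1, to -0.071 without knockout 8 and to -0.57 without both, ran from -0.071 to 0.83 when 1 library was left out, and has no value at a mean of at least 50. Iigp1 has no value with DESeq2. Irgm1 newly passed with DESeq2 (log2 fold change 0.40, adjusted p = 0.0401, 0.0401 to 0.362 over its alternatives). Gbp3 newly passed with limma without control 1 and knockout 8 (0.28, adjusted p = 0.0303, 0.0303 to 0.483 over its alternatives). The count of members past the threshold was thus 1 under each of those settings and 0 under the others, 0 to 0 when 1 library was left out. The other family genes gave 0 throughout. Genes past the threshold over the whole table were 234 (199 higher, 35 lower), 104 with no intensity trend, 1000 with array weights (546 higher, 454 lower), 558 with DESeq2, 1440 without control 1 and knockout 8 (651 higher, 789 lower), and 135 to 569 when 1 library was left out, the highest without knockout 8 (342 higher, 227 lower). Without control 1 there were 371 (268 higher, 103 lower). Mx1, Nlrc5, Batf2, Irf9 and Tap1 lost their calls with no intensity trend (adjusted p = 0.143, 0.157, 0.136, 0.172 and 0.104). The causes were not tested. Gbp4, Gbp9 and Iigp1 rest on few reads outside knockout 8, which limits their ratios. No paired analysis was run because the labels do not pair controls, replicates 1 to 4, with knockouts, replicates 5 to 8. The controls are littermates, so a pairing by litter is unknown and not excluded.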

Other observations

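Genes with a wide distance between knockout 8 and the other 7 libraries were looked up after their values were seen, among 12322 genes with a mean of at least 100, of which 79 reached at least 1.5 times the highest other library in knockout 8. Inpp5f, a phosphoinositide phosphatase, was at 6842 normalised counts in knockout 8 and at 349 to 498 elsewhere. Aox1, an aldehyde oxidase, was at 1003 in knockout 8 and at 0 to 25.9 elsewhere. Neither is a GBP or IRG gene.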
